A study of Mus musculus with 14 samples.

Results

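The 48 genes described here were those whose level was higher in every library of resident mast cells from untreated mouse ear skin than in any mast cell library from skin treated with MC903. MC903 (calcipotriol) is a vitamin D analogue that, painted on mouse ears, is used as a model of atopic dermatitis. The genes were taken from a table of RNA sequencing counts by their own values: a protein-coding gene entered when its lowest level over the untreated libraries was at least 10 CPM (the gene's count divided by the library total, times 1000000) and at least 1.5 times its highest level over all MC903 libraries. Its highest bone marrow mast cell level also had to reach 3 CPM. Of 55487 genes in the table, 21903 were protein-coding and 5845 of these had a lowest untreated level of 10 CPM or more. The 48 genes made up 0.821% of those 5845. The rule left out Myc, Srxn1, Olr1 and Ms4a2 by name, 3 of which met its other conditions, and Pcp4l1 stayed out because its highest bone marrow level was 2.33 CPM.

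The 14 libraries were made from mice of 2 kinds, untreated and MC903-treated. The strain, genotype, age, dose and duration of treatment were not given in the sources used here. Untreated skin gave 5 libraries of resident mast cells (numbered 1 to 5). Treated skin gave 5 libraries of resident mast cells (6 to 10) and 4 that carry the label bone marrow mast cells (11, 13, 14 and 15). For the treated mice, the sort in the protocol names integrin β7-positive mast cells beside resident ones, and does not say that these are the cells labelled bone marrow. Each library held at most 100 cells, pooled from both ears, and nothing in the labels ties a library to an animal, so p-values here measure only the spread between these libraries. In such pools, fewer cells with a transcript and less of it in each cell cannot be told apart.

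Total counts ran from 13068078 to 31781926 per library. All 20 core mast cell genes examined (Kit, Cpa3, Fcer1a and others) reached 1 CPM in every group, with summed levels of 96610 to 109500 CPM in untreated, 142000 to 168200 CPM in MC903 resident and 113900 to 156600 CPM in bone marrow libraries. Markers of macrophages and dendritic cells summed to 8.11 to 46.7 CPM in untreated and 16.4 to 32.3 CPM in MC903 resident libraries, and to 22.6 to 11020 CPM in bone marrow libraries, the last in library 15. The basophil markers Mcpt8 and Prss34 summed to 9.14 to 36.6 CPM in untreated, 6.28 to 75.3 CPM in MC903 resident and 46.05 to 959.5 CPM in bone marrow libraries, the last in library 11. T cell markers summed to 0.0739 to 6.72, 0.572 to 47.97 and 4.001 to 76.1 CPM, and endothelial markers to 4.05 to 9.82, 10.3 to 22.7 and 14.7 to 41.1 CPM, in the same order. Libraries 7, 8 and 15 had the most genes with a count (34560, 35246 and 32814, against 16025 to 28790 in the others). Mitochondrial genes took 1.22% to 1.70% of counts in untreated libraries and 2.14% to 4.24% in MC903 libraries. The part of these differences in the results below was not tested unless a value is given.

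Mast cells are long-lived granulated cells of the skin that respond to antigen through the IgE receptor and to many other stimuli with degranulation and with new transcription. That transcription begins with immediate early genes such as the NR4A nuclear receptors and continues with cytokines such as TNF, and it is held in check by inhibitors of calcium, NF-κB and ubiquitin signalling. Skin holds resident mast cells of the connective tissue type, and in inflamed tissue integrin β7-carrying cells derived from the bone marrow can join them.

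The promoters of the members are shown first, because a motif near the start site is a feature the selection did not use. Promoter windows from RefSeq (GRCm38.p6, 250 bases before to 50 bases after the annotated start) were found for 45 of the 48 members. Tubb6, Sbds and 4930452B06Rik are named only. The sequences below end upstream of the RefSeq start, contain no annotated exon of GENCODE M21, and stand 5′ to 3′ on the strand of the gene with the motif in capitals. Those of Rcan1, Pnrc1 and Plek lie in introns of longer transcripts of the same gene, and the others lie outside the gene. Tnf has a TATA box (chr17:35202008-35202067, minus strand). Heat shock elements (GAANNTTC) are shown for Rcan1 (chr16:92466243-92466302, minus), Pnrc1 (chr4:33248811-33248870, minus) and Tra2b (chr16:22266179-22266238, minus). The core of the antioxidant response element (TGACNNNGC) is shown for Nr4a3 (chr4:48045055-48045114, plus) and Plek (chr11:17008807-17008866, minus). P2ry10b (chrX:107148783-107148842, plus) carries an AP-1 site (TGANTCA), and Mlf1 (chr3:67374017-67374076, plus) carries a cAMP response element (CRE, TGACGTCA). Wsb1 has a pair of E-boxes (CACGTG) in 1 stretch (chr11:79254864-79254923, minus).
Tnf: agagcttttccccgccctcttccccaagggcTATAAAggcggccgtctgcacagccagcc
Rcan1: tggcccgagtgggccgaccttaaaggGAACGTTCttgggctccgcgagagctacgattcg
Pnrc1: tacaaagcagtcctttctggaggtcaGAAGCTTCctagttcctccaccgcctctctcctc
Tra2b: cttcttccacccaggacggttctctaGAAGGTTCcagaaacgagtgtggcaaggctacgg
Nr4a3: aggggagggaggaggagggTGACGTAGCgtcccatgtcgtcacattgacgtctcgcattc
Plek: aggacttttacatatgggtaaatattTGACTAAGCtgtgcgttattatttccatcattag
P2ry10b: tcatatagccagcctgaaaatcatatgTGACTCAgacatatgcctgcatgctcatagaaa
Mlf1: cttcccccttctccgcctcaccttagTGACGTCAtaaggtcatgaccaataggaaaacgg
Wsb1: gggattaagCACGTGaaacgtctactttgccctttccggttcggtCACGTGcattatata

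Each motif was searched on both strands of the whole windows, and the same search over 4717 windows of protein-coding genes at 10 CPM or more in every untreated library and over 16514 windows of all protein-coding genes gave the background. TATAAA was present in 10 of 45 member windows (22.2%), against 6.74% of the expressed genes and 12.9% of all genes: Tnf, Nr4a2, Mat2a, Slc2a1, Neurl3, Lonrf3, Gimap6, Ppp1r2, Ndel1 and Rbmx. With its first base 45 to 20 bases before the start, where a TATA box lies, it was present in only 4 of these (8.89%, against 1.17% and 3.49%), Tnf, Mat2a, Neurl3 and Lonrf3, and in Lonrf3 on the opposite strand. That position limit was chosen after the matches were seen, and the other 6 held the letters elsewhere, in Slc2a1 and Rbmx after the start. The heat shock element was present in 7 members (15.6%, against 5.17% and 7.34%), namely Dnajb6, Neurl3, Pnrc1, Ppp1r2, Rcan1, Rlim and Tra2b. The antioxidant response element core was found in 11 members (24.4%, against 15.6% and 13.3%), the E-box in 8 (17.8%, against 11.3% and 8.08%), and the NF-κB site in 5 (11.1%, against 10.4% and 9.14%). The AP-1 site, whose letters can overlap those of the antioxidant core, was in 3 (6.67%, against 4.43% and 6.99%) and the CRE in 2 (4.44%, against 3.54% and 2.42%). No window held the CArG box, which 1.40% of expressed genes had. The median GC content of the windows was 62.3% in members and 62.0% in expressed genes. These matches describe letters in a window, not bound sites.

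**Figure D1:**
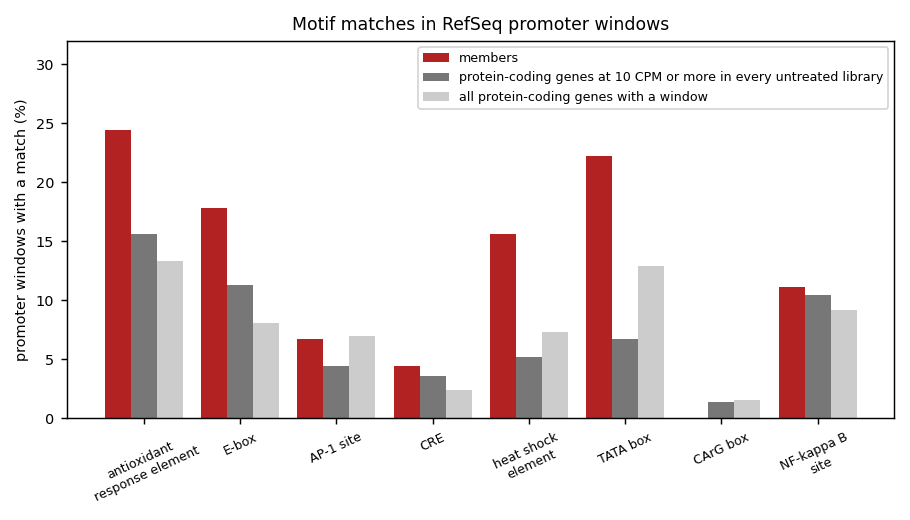
Share of promoter windows (vertical axis, percent) with at least 1 match to each of 8 motifs (horizontal axis), for members (red), protein-coding genes at 10 CPM or more in every untreated library (dark grey) and all protein-coding genes (light grey). The bar labelled TATA box counts the letters TATAAA anywhere in the window (22.2% of members against 6.74% of expressed genes), and the heat shock element stands at 15.6% against 5.17%.

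Selection by level gives the following picture, which is a description and not a test. The members' mean level over the untreated libraries ran from 33.9 CPM (4930452B06Rik) to 6152 CPM (Plek), with a median of 282 CPM. The medians were 83.3 CPM in MC903 resident and 69.1 CPM in bone marrow libraries. The mean untreated level was 1.75 to 8.37 times the MC903 resident mean (median 2.98) and 2.10 to 44.4 times the bone marrow mean (median 3.73); both folds share the untreated libraries. The ratio that chose the genes, the lowest untreated over the highest MC903 level, reached 4.76 with a median of 1.66, and 12 genes reached 2. Just inside the threshold lay Chka, Atl2 and Ddx3x, and just outside it lay Sertad1 (lowest untreated 304 CPM, highest MC903 203 CPM), Sqstm1 (7579.7 and 5067 CPM) and Nedd9 (332 and 222 CPM). The mirrored rule, for genes at 10 CPM or more and higher in all MC903 libraries, took 25 genes, which need not be among the 5845.

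**Figure D2:**
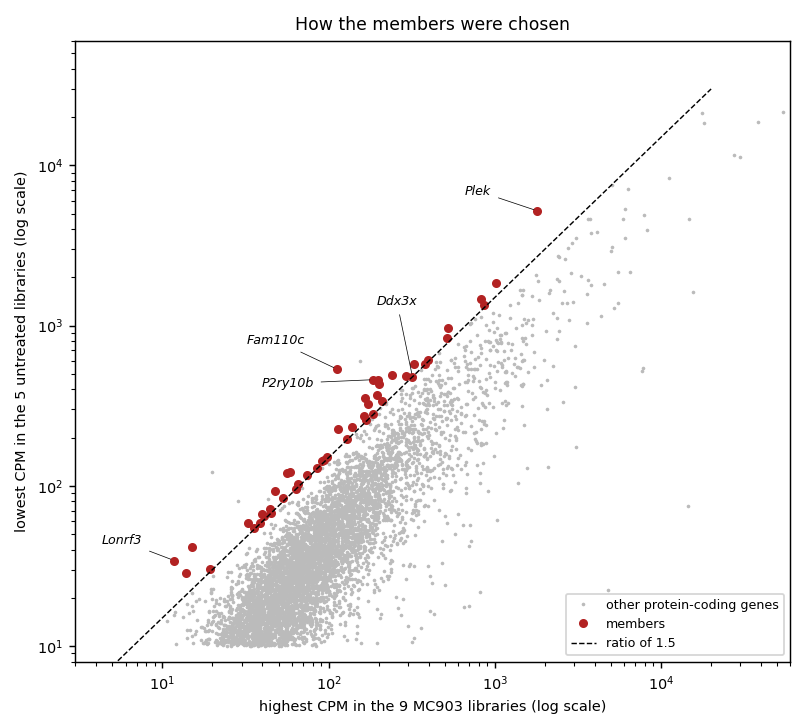
Each point is 1 of the 5845 protein-coding genes at 10 CPM or more in every untreated library, by its highest CPM over the 9 MC903 libraries (horizontal, log scale) and its lowest CPM over the 5 untreated libraries (vertical, log scale), with members in red and the ratio of 1.5 as a dashed line. The 4 grey points clearly above the line are the 3 genes left out by name and Pcp4l1, and Ddx3x lies on the line.

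Together the members took 2.34% to 3.10% of all counts in the untreated libraries, 0.815% to 0.901% in the MC903 resident and 0.600% to 0.738% in the bone marrow libraries. Without Plek the shares were 1.81% to 2.26%, 0.684% to 0.738% and 0.497% to 0.582%. Within the untreated group, library 1 was the highest of the 5 for 25 of the 48 members, and 39 lay above their group mean there. The members' median in library 1 was 0.26 log2 units above the group mean, against 0.01 for the other 5797 genes that could have been members. Library 2 was the lowest for 17 members. Across the 5 untreated libraries, pairs of members had a mean Pearson r of 0.200 and 66.0% of 1128 pairs were positive, against 0.00092 and 49.99% for pairs of the other genes. The members' mean r was 0.0110 in MC903 resident and 0.0617 in bone marrow libraries, against 0.0143 and 0.00803 for the other genes. These correlations share the library and its depth and rest on 5, 5 and 4 points each. The members were chosen on these same values, so setting them against other genes is a description and not a test.

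**Figure D3:**
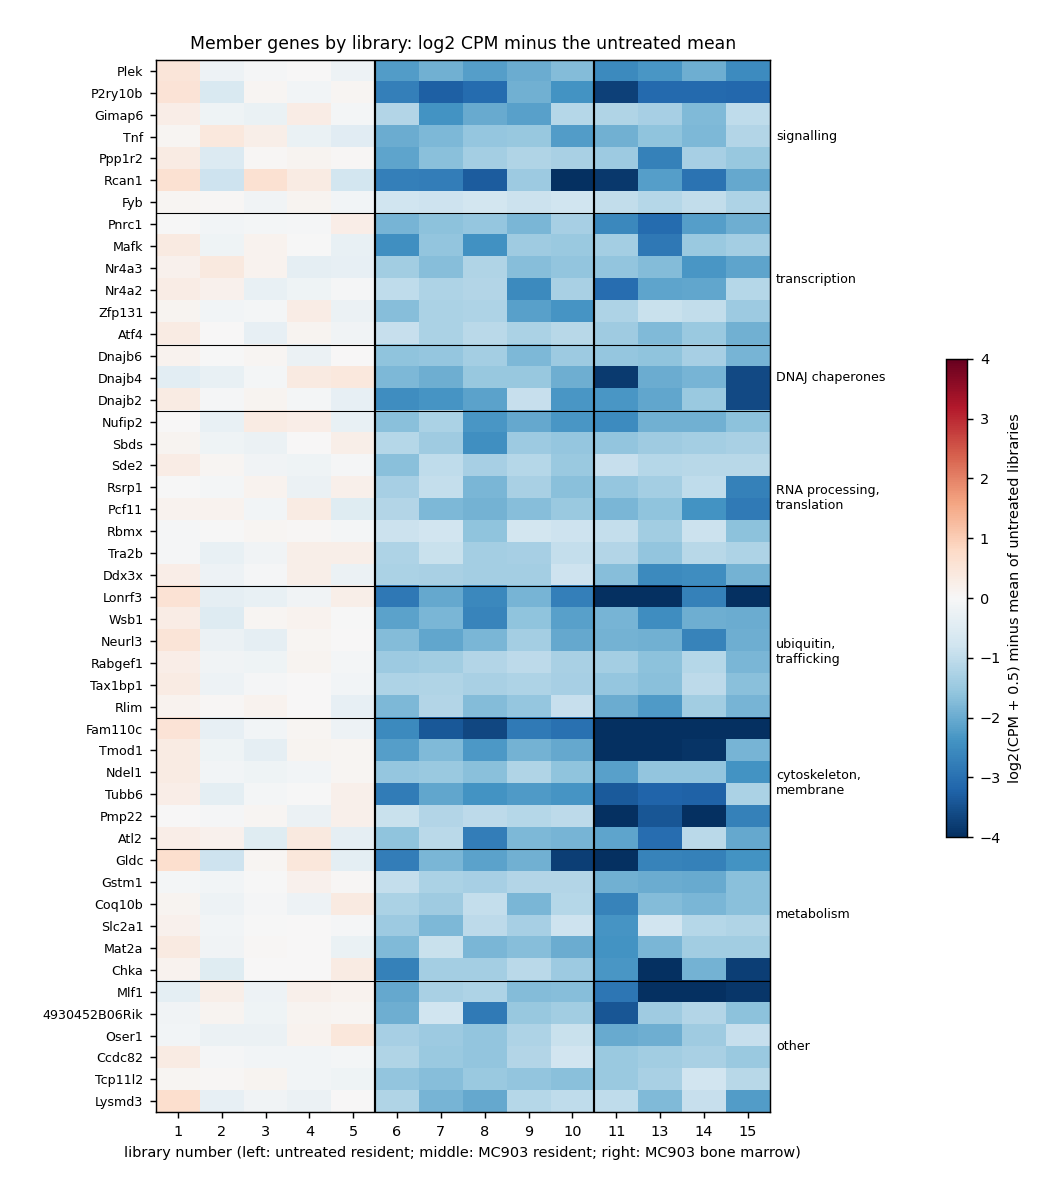
Level of each member (rows, grouped by role) in each of the 14 libraries (columns), as log2(CPM + 0.5) minus the mean of the untreated libraries, from blue (lower) to red (higher), with colours ending at 4 units to either side. Library 1 is the reddest column, all MC903 columns are blue, and Pmp22, Mlf1, Fam110c, Lonrf3 and Tmod1 are darker in most bone marrow columns than in the MC903 resident columns.

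Roles were assigned to the members after their values were seen, and serve only to order them. The signalling genes were Tnf, Rcan1, Plek, P2ry10b, Ppp1r2, Fyb and Gimap6, with untreated means from 82.2 to 6152 CPM. Plek (chr11:16971206-17052381 on GRCm38, as are all gene positions here) encodes pleckstrin, a substrate of protein kinase C in platelets and leukocytes, and was the most abundant member. Plek was at 8386, 5252, 5854, 6064 and 5203 CPM in untreated libraries 1 to 5, at 1298, 1602, 1307, 1514 and 1802 CPM in MC903 resident libraries 6 to 10, and at 1036, 1218, 1566 and 1065 CPM in bone marrow libraries 11, 13, 14 and 15. Library 1 was the highest of all, and the MC903 resident and bone marrow ranges overlapped. Per kilobase of exon, Plek and the glutathione transferase Gstm1 were the highest members in the untreated libraries, at 1371 and 1351 CPM per kb.

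Tnf (chr17:35199381-35202007) encodes the cytokine that mast cells can store and release. For Tnf, untreated libraries 1 to 5 held 497, 626, 558, 389 and 341 CPM, MC903 resident libraries 6 to 10 held 117, 135, 159.7, 166 and 100.4 CPM, and bone marrow libraries 11, 13, 14 and 15 held 123, 155, 134 and 211 CPM. The groups of treated cells overlapped almost fully, and the choice of the members put the untreated libraries above both. The untreated mean was 3.56 times the MC903 resident mean and 3.10 times the bone marrow mean for Tnf. P2ry10b (chrX:107148927-107173661), a paralogue of the lysophosphatidylserine receptor gene P2ry10, had larger folds. In library order, P2ry10b measured 1016, 459.8, 749, 654 and 749.8 CPM in untreated, 105, 72.6, 82.8, 186 and 135 CPM in MC903 resident, and 52.01, 80.8, 81.2 and 78.5 CPM in bone marrow cells. The untreated mean was 6.24 times the MC903 resident mean and 9.92 times the bone marrow mean for P2ry10b. Its lowest untreated library was number 2 and its highest treated one number 9, in the order that the rule requires.

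Rcan1 (chr16:92391953-92470867), an inhibitor of the phosphatase calcineurin, varied widely within the untreated group. Rcan1 was at 390.4, 146, 391, 326 and 156 CPM in untreated libraries 1 to 5, at 38.7, 37.02, 25.3, 94.1 and 13.3 CPM in MC903 resident libraries 6 to 10, and at 17.4, 55.9, 32.6 and 61.4 CPM in bone marrow libraries 11, 13, 14 and 15. Untreated libraries 2 and 5 stood well below the other untreated ones, and library 9 was the highest treated one. Ppp1r2, an inhibitor of protein phosphatase 1, averaged 174 ± 35.8 CPM in untreated (SD, n = 5), 60.5 ± 14.02 CPM in MC903 resident (n = 5) and 53.8 ± 19.1 CPM in bone marrow libraries (n = 4), the order, SD and n used for all such means below. Fyb, an adaptor of immune receptor signalling, had the smallest drop to MC903 resident cells of all members, with means of 282 ± 20.9, 161 ± 5.06 and 133 ± 11.6 CPM. Gimap6, a GTPase of lymphocytes and other immune cells, averaged 82.2 ± 14.96, 24.9 ± 10.1 and 32.4 ± 6.78 CPM.

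**Figure D4:**
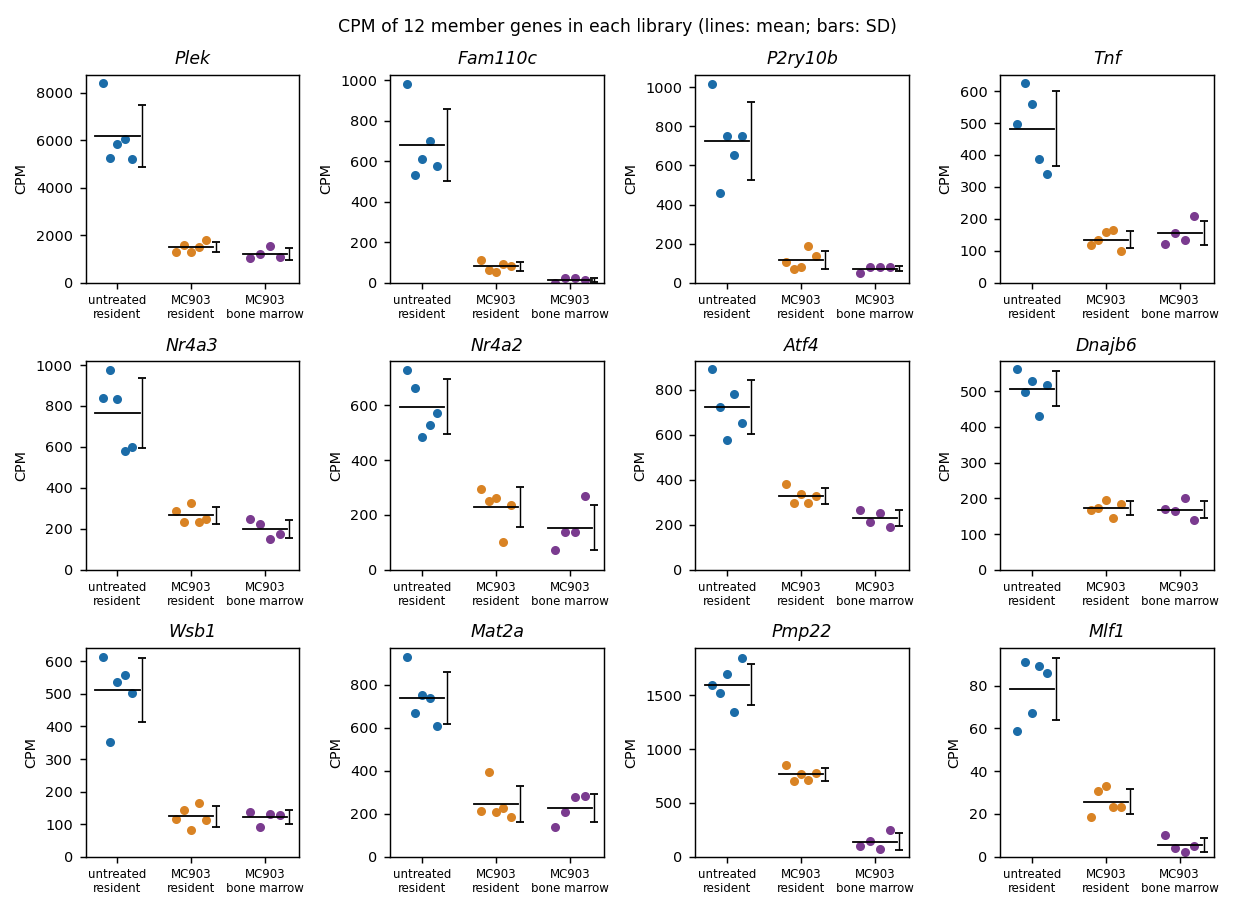
CPM (vertical axis, from 0) of 12 members in every library, grouped as untreated resident (blue), MC903 resident (orange) and MC903 bone marrow (purple), with the group mean as a line and the SD as a bar beside it. In each panel all 5 blue points lie above all others, as the rule requires. For Fam110c, Atf4, Pmp22 and Mlf1 the purple points also lie below all orange ones.

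The transcriptional regulators were Nr4a3, Nr4a2, Atf4, Mafk, Pnrc1 and Zfp131. Nr4a3 and Nr4a2 encode orphan nuclear receptors of the immediate early class. For Nr4a3, untreated libraries 1 to 5 held 839, 977, 835, 579.5 and 598 CPM, MC903 resident libraries 6 to 10 held 288, 232, 327, 232 and 249.8 CPM, and bone marrow libraries 11, 13, 14 and 15 held 248, 225, 149 and 174 CPM. In library order, Nr4a2 measured 728, 665, 483, 528 and 573 CPM in untreated, 293, 252, 262, 101 and 237 CPM in MC903 resident, and 71.1, 136, 139 and 268 CPM in bone marrow cells. The treated ranges overlapped for both genes. Bone marrow library 15 held more Nr4a2 than MC903 resident libraries 7 to 10, and MC903 resident library 9 held less than 3 of the 4 bone marrow libraries.

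Atf4 (chr15:80255184-80257541) encodes the transcription factor of the integrated stress response, whose output is set mostly by translation. Atf4 was at 890.2, 725, 575, 779.9 and 649.5 CPM in untreated libraries 1 to 5, at 379, 294, 338, 298 and 329 CPM in MC903 resident libraries 6 to 10, and at 266, 210.0, 254 and 189 CPM in bone marrow libraries 11, 13, 14 and 15. All 4 bone marrow libraries were below all 5 MC903 resident libraries. The untreated mean was 2.21 times the MC903 resident mean and 3.15 times the bone marrow mean for Atf4. Pnrc1 (chr4:33245423-33290163), a nuclear receptor coactivator, had the same order of groups. For Pnrc1, untreated libraries 1 to 5 held 494, 461, 475, 485 and 599.6 CPM, MC903 resident libraries 6 to 10 held 136, 160.4, 173, 139.8 and 198 CPM, and bone marrow libraries 11, 13, 14 and 15 held 83.8, 59.00, 108 and 129.5 CPM. Mafk, a small Maf protein that pairs with NRF2 at antioxidant response elements, averaged 152 ± 27.04, 42.9 ± 14.2 and 47.4 ± 18.2 CPM. Zfp131, a zinc finger protein, averaged 76.6 ± 11.5, 23.4 ± 8.24 and 34.6 ± 6.16 CPM, with the bone marrow mean above the MC903 resident mean.

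Of the DNAJ family, the co-chaperones of HSP70, Dnajb6, Dnajb4 and Dnajb2 were members. In library order, Dnajb6 measured 563, 497, 529, 432 and 516 CPM in untreated, 166, 173, 196, 145 and 184 CPM in MC903 resident, and 171, 164, 200.3 and 139.8 CPM in bone marrow cells. The MC903 resident and bone marrow ranges overlapped. Dnajb4 averaged 166 ± 43.3, 48.1 ± 7.40 and 27.03 ± 17.7 CPM, and its bone marrow libraries split into 40.7 and 43.9 CPM in libraries 13 and 14 and 10.8 and 12.7 CPM in libraries 11 and 15. Dnajb2 averaged 69.3 ± 11.4, 17.8 ± 10.03 and 14.7 ± 7.93 CPM.

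Among genes of RNA processing and translation, Rsrp1, an arginine- and serine-rich protein, was the most abundant. Rsrp1 was at 974, 935, 1108, 842 and 1143 CPM in untreated libraries 1 to 5, at 395, 514, 278, 405 and 310.0 CPM in MC903 resident libraries 6 to 10, and at 341, 391, 491 and 154 CPM in bone marrow libraries 11, 13, 14 and 15. Treated values spread widely, from library 15 at the bottom to library 7 at the top, below the untreated ones as the rule requires. Ddx3x (chrX:13280970-13294052), an RNA helicase of translation initiation, was the member closest to the threshold. For Ddx3x, untreated libraries 1 to 5 held 684, 495, 546, 676 and 479.6 CPM, MC903 resident libraries 6 to 10 held 236, 234, 224, 221 and 319 CPM, and bone marrow libraries 11, 13, 14 and 15 held 176, 96.6, 101 and 153 CPM. Its bone marrow libraries were all below its MC903 resident libraries. The ribosome maturation factor Sbds averaged 437 ± 58.8, 148 ± 43.02 and 162 ± 13.8 CPM, and the splicing regulator Tra2b averaged 349.6 ± 58.1, 157 ± 23.8 and 143 ± 20.3 CPM. The cleavage factor Pcf11, Nufip2, Sde2 and the RNA-binding protein Rbmx had untreated means of 102, 117, 264 and 108 CPM, and were 1.90 to 3.76 times as high there as in MC903 resident cells.

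Genes of ubiquitin signalling and trafficking included Rabgef1, whose product Rabex-5 activates Rab5 and restrains IgE receptor signalling in mast cells. In library order, Rabgef1 measured 1292, 975, 963, 1169 and 1025 CPM in untreated, 390.0, 407, 475, 521 and 438 CPM in MC903 resident, and 419.9, 345, 492 and 302 CPM in bone marrow cells. Tax1bp1, an autophagy receptor that also works with the NF-κB inhibitor A20, was the third most abundant member by CPM. Tax1bp1 was at 2146, 1472, 1655, 1711 and 1583 CPM in untreated libraries 1 to 5, at 723, 744, 685, 726 and 672 CPM in MC903 resident libraries 6 to 10, and at 584, 527, 829.8 and 532 CPM in bone marrow libraries 11, 13, 14 and 15. Both genes had overlapping treated ranges. Wsb1, the substrate receptor of a ubiquitin ligase, showed a larger fold. For Wsb1, untreated libraries 1 to 5 held 614, 353, 537, 557 and 502 CPM, MC903 resident libraries 6 to 10 held 115, 143, 81.3, 165 and 112 CPM, and bone marrow libraries 11, 13, 14 and 15 held 138, 89.5, 131 and 127 CPM. The untreated mean was 4.16 times the MC903 resident mean and 4.22 times the bone marrow mean for Wsb1. Its treated groups overlapped.

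The RING finger gene Lonrf3 was near the detection limit in bone marrow cells. In library order, Lonrf3 measured 66.5, 34.2, 36.02, 40.2 and 52.7 CPM in untreated, 5.73, 10.4, 6.96, 11.8 and 6.33 CPM in MC903 resident, and 0, 0.0629, 6.39 and 0.601 CPM in bone marrow cells. Library 11 had no count, which allows up to 0.122 CPM at 3 counts, and library 14 held nearly all of the bone marrow signal. The ubiquitin ligase genes Neurl3 and Rlim averaged 301 ± 75.4, 85.3 ± 17.9 and 69.4 ± 15.9 CPM and 248 ± 30.9, 93.5 ± 24.7 and 68.7 ± 18.5 CPM, respectively.

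The cytoskeleton and membrane genes were Fam110c, Tmod1, Pmp22, Ndel1, Tubb6 and Atl2. Fam110c (chr12:31073861-31080251), a protein of centrosomes and microtubules, had the largest ratio of all members. Fam110c was at 980.3, 535, 613, 700.4 and 576 CPM in untreated libraries 1 to 5, at 112, 63.6, 53.3, 93.98 and 83.4 CPM in MC903 resident libraries 6 to 10, and at 0.898, 24.4, 22.3 and 13.8 CPM in bone marrow libraries 11, 13, 14 and 15. The 3 groups did not overlap, and the mean fell 8.37-fold to MC903 resident and 44.4-fold to bone marrow cells. By level per kilobase, Fam110c held rank 9 of 48 in untreated cells, at 220.5 CPM per kb, rank 24 in MC903 resident cells (26.3 CPM per kb) and rank 38 in bone marrow cells (4.97 CPM per kb). Tmod1, which caps the pointed ends of actin filaments, was nearly without counts in bone marrow libraries 11 and 13. For Tmod1, untreated libraries 1 to 5 held 66.3, 47.3, 41.6, 57.4 and 55.7 CPM, MC903 resident libraries 6 to 10 held 11.2, 15.2, 10.5, 13.9 and 12.3 CPM, and bone marrow libraries 11, 13, 14 and 15 held 0, 0.0629, 3.04 and 14.1 CPM. Bone marrow library 15 was in the MC903 resident range.

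Pmp22 (chr11:63128982-63159547), a tetraspan protein best known from myelin, was abundant in all resident cells. In library order, Pmp22 measured 1593, 1527, 1696, 1342 and 1849.5 CPM in untreated, 855, 704, 764, 717 and 779 CPM in MC903 resident, and 97.3, 147, 69.4 and 243 CPM in bone marrow cells. The 3 groups did not overlap. The mean was 2.10 times as high in untreated as in MC903 resident cells and 11.5 times as high as in bone marrow cells. Ndel1, a regulator of dynein, averaged 565 ± 84.7, 198 ± 25.9 and 151 ± 42.2 CPM. The tubulin gene Tubb6 averaged 424 ± 73.1, 81.4 ± 14.2 and 75.8 ± 64.97 CPM, with bone marrow library 15 at 173 CPM and the others at 40.7 to 44.9 CPM. Atl2, which fuses endoplasmic reticulum membranes, averaged 97.7 ± 25.1, 28.4 ± 11.3 and 24.98 ± 14.01 CPM.

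Metabolic members were led by Gstm1 (chr3:108012255-108017973), which conjugates glutathione. Gstm1 was at 1860.0, 1839, 1946, 2259 and 2048 CPM in untreated libraries 1 to 5, at 1018, 823, 783, 879 and 872 CPM in MC903 resident libraries 6 to 10, and at 529, 505, 486 and 623 CPM in bone marrow libraries 11, 13, 14 and 15. No group overlapped another. Mat2a, the enzyme of S-adenosylmethionine synthesis, came next. For Mat2a, untreated libraries 1 to 5 held 931, 669, 755, 737 and 608 CPM, MC903 resident libraries 6 to 10 held 213, 395, 206, 225 and 186 CPM, and bone marrow libraries 11, 13, 14 and 15 held 139.9, 207, 276 and 282 CPM. The treated groups overlapped, with MC903 resident library 7 above all other treated ones. The glucose transporter Slc2a1 had means of 166 ± 13.4, 68.7 ± 17.7 and 68.8 ± 27.1 CPM, and its treated ranges overlapped. Coq10b, of the coenzyme Q pathway, averaged 316 ± 52.7, 128 ± 27.9 and 81.4 ± 22.3 CPM. Choline kinase Chka averaged 136 ± 26.5, 47.4 ± 16.1 and 19.8 ± 13.6 CPM, and the glycine decarboxylase Gldc averaged 54.5 ± 21.7, 9.67 ± 4.46 and 6.72 ± 2.84 CPM.

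Of the remaining members, Mlf1 (chr3:67374097-67400003), named for its fusion partner role in myeloid leukaemia, had the same order of groups as Pmp22. In library order, Mlf1 measured 58.9, 91.2, 67.3, 89.2 and 85.8 CPM in untreated, 18.4, 30.9, 32.9, 23.1 and 23.3 CPM in MC903 resident, and 9.96, 4.09, 2.19 and 4.81 CPM in bone marrow cells. Again no group overlapped another. Tcp11l2 averaged 146 ± 12.2, 47.7 ± 3.01 and 65.8 ± 14.2 CPM, with the bone marrow mean above the MC903 resident one. Oser1, Ccdc82, Lysmd3 and 4930452B06Rik had untreated means of 101, 155, 76.4 and 33.9 CPM and MC903 resident means of 40.7, 66.2, 27.8 and 11.3 CPM.

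The comparison of the treated populations with each other was not used to choose the genes, apart from the ceiling that the untreated level set for both and the minimum in bone marrow cells. All 48 members were tested, in a fit over 21014 genes (edgeR quasi-likelihood test, Benjamini-Hochberg adjustment, adjusted p under 0.05). Of all genes tested, 2.27% were called, 0.952% lower and 1.32% higher in bone marrow cells; of the 5845 genes that could have been members, 6.16% were called and 2.28% were lower. Of the 48 members, 2 were called (4.17%), Pmp22 and Mlf1, both lower in bone marrow cells. With DESeq2 size factors 4 of 48 members were called, against 5.22% of the genes that could have been members. With TMM factors from abundant genes it was 4 of 48, against 5.54%. The members' share was below that of those genes in the first fit and above it with both other scalings.

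Pmp22 was lower in bone marrow cells by a log2 fold change of -2.30 ± 0.27 (SE, 95% interval -2.87 to -1.73, adjusted p = 4.89e-05 by the edgeR quasi-likelihood test). Mlf1 differed by -2.11 ± 0.37 (95% interval -2.88 to -1.35, adjusted p = 0.00295 by the same edgeR test). In each, all 4 bone marrow libraries were below all 5 MC903 resident libraries. Without library 15, which held macrophage and dendritic cell markers, the log2 fold changes were -2.67 for Pmp22 and -2.05 for Mlf1. Without libraries 7, 8 and 15 they were -2.83 and -1.96, with adjusted p of 3.96e-05 and 0.0391 in edgeR.

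Members that did not pass ranged widely. Fam110c differed by -2.24 ± 0.65 (adjusted p = 0.103, edgeR), Lonrf3 by -2.06 ± 0.996 (adjusted p = 0.296) and Tmod1 by -1.43 ± 1.06 (adjusted p = 0.519), each with few counts in part of the bone marrow libraries. Of 23 alternative fits, Fam110c passed in 4: without bone marrow library 11 (-1.87, adjusted p = 0.000862, edgeR), at a mean of 10 CPM or more, and with the DESeq2 Wald test and limma. Lonrf3 passed in 2, without bone marrow library 14 (-5.14, adjusted p = 0.000587, edgeR) and with limma. Tmod1 passed in 1, limma (-5.17, adjusted p = 0.0195), and its edgeR value was -3.44 without bone marrow library 15 (adjusted p = 0.063) and -1.02 and -1.03 without bone marrow library 11 or 13. Pnrc1 passed in 2, at a mean of 10 CPM or more (-0.76) and with the DESeq2 Wald test (-0.75). Gstm1 differed by -0.55 ± 0.16 (adjusted p = 0.0901, edgeR) and passed in 11 of 23 alternative fits, among them those with other scaling factors, while Ddx3x differed by -0.77 ± 0.22 (adjusted p = 0.0715, edgeR). At the other end stood Zfp131 (0.79 ± 0.26, adjusted p = 0.12, edgeR) and Tcp11l2 (0.63 ± 0.20, adjusted p = 0.105, edgeR).

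For 30 of the 48 members (62.5%), the 95% interval of this difference lay within 2-fold either way. The share was 44.1% of genes that could have been members and 12.6% of all genes tested. The rule held both treated groups under the same ceiling, so the members' share is not independent of how they were chosen. The interval for Plek was -0.54 to 0.26, for Dnajb6 -0.22 to 0.50, for Tax1bp1 -0.39 to 0.33 and for Mat2a -0.37 to 0.53 on the log2 scale. Tnf differed by 0.37 (-0.07 to 0.81), Nr4a3 by -0.24 (-0.65 to 0.17), Nr4a2 by -0.39 (-1.004 to 0.22) and Atf4 by -0.35 (-0.72 to 0.03). The members' median log2 difference was -0.10, against 0.16 for genes that could have been members and -0.28 for all genes. Bone marrow libraries were all below the MC903 resident libraries for 8 members (16.7%: Fam110c, Pnrc1, Gstm1, Mlf1, Pmp22, Fyb, Atf4 and Ddx3x), and all above them for 0, against 5.87% and 4.98% of genes that could have been members. Over all genes tested, 7.96% did not overlap in either direction, and 5.23% had bone marrow below.

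**Figure D5:**
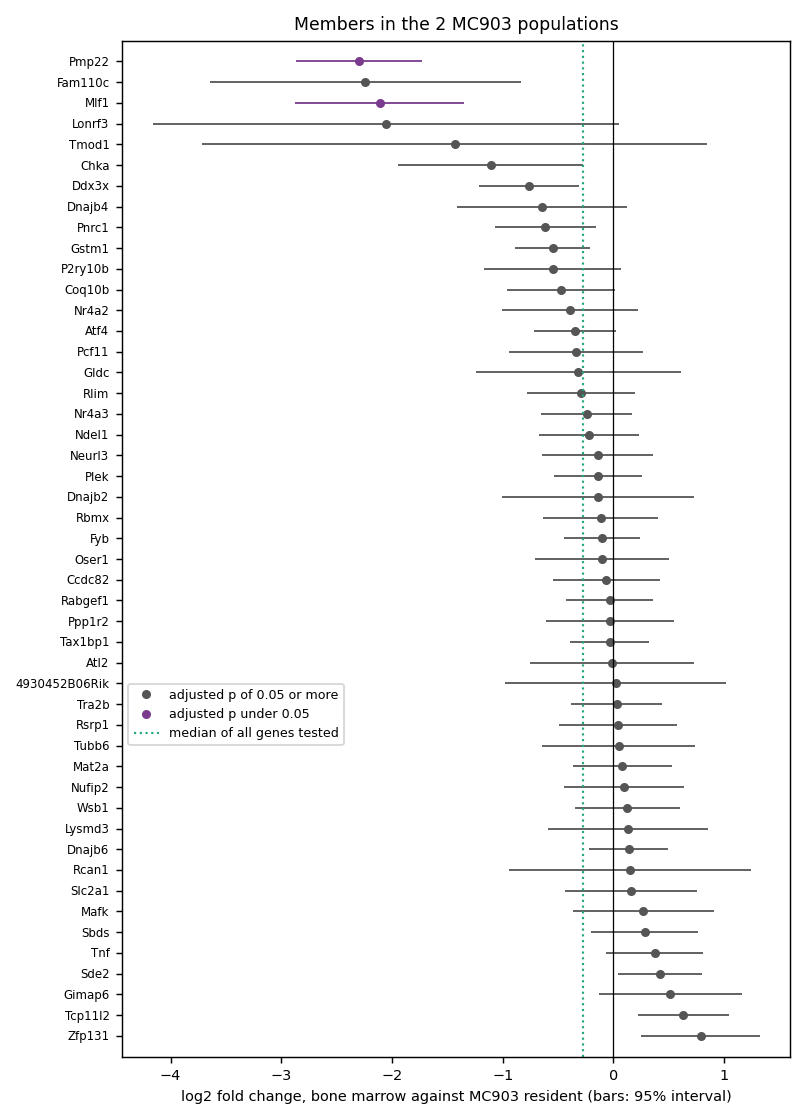
Log2 fold change of each member between bone marrow and MC903 resident mast cells (horizontal axis; points are estimates and bars 95% intervals from the edgeR fit), ordered by estimate, with the called genes in purple. Only Pmp22 (-2.30) and Mlf1 (-2.11) are called; the dotted line marks the median of all genes tested (-0.28).

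Other genes of the same pathways were read from lists in which the members themselves were left out, in the comparisons with untreated cells. The 2 comparisons share the untreated libraries. Of all genes tested by edgeR, 2.25% were called in MC903 resident cells, 1.68% lower and 0.571% higher. In bone marrow cells 6.87% were called, 3.37% lower and 3.49% higher. Of the 5845 genes that could have been members, 5.87% were lower and 1.04% higher in MC903 resident cells, and 9.91% lower and 7.53% higher in bone marrow cells. The balance in MC903 resident cells moved with the scaling: of all calls, 25.4% were higher, 41.3% with DESeq2 size factors and 48.4% with TMM factors from abundant genes. With these factors the median over all genes tested shifted by 0.15 and 0.21 log2 units. Of the 5845 genes, 4.91% were then lower and 2.29% higher with the first, and 4.43% lower and 2.86% higher with the second. Of 293 genes of 17 pathway lists without the members, 44 were called lower and 2 higher in MC903 resident cells, and 46 lower and 29 higher in bone marrow cells. Limited to the 209 of them among those 5845 genes, 43 were lower (20.6%) and 1 higher (0.478%) in MC903 resident cells. In bone marrow cells 46 were lower (22.0%) and 21 higher (10%). The lists were chosen with earlier results of these data known, so these shares are not independent of the members. Srxn1, which met the rule but was left out by name, and Sqstm1, just outside its threshold, are counted as lower in both. The lower count in MC903 resident cells was 25, 29 and 27 without library 6, 7 or 8, and 19 without libraries 7, 8 and 15. Without those 3 libraries, the MC903 resident count went from 7 to 2 for NF-κB targets, from 5 to 3 for immediate early genes, from 5 to 2 for the ubiquitin list and from 4 to 1 for p53 targets. Counts of 3 or fewer in a list moved by up to 2 genes with 1 library left out.

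Among 28 immediate early genes beside Nr4a2 and Nr4a3, 5 were called lower and 0 higher in MC903 resident cells (median log2 fold change -0.65, all genes 0.24, genes that could have been members -0.25), and 12 lower and 3 higher in bone marrow cells (median -0.97, all genes -0.14, genes that could have been members -0.11). The MC903 resident count was 3 without library 2, 3, 7 or 8, 2 without library 6 and 8 without library 15. The 3 called higher in bone marrow cells were Ier3, Btg1 and Btg2. Egr1, a zinc finger factor of this class, averaged 5910.0 ± 1328, 2690.0 ± 799.7 and 1116 ± 482 CPM. The log2 fold change of Egr1 was -1.26 ± 0.27 (SE) in MC903 resident cells (adjusted p = 0.0108, edgeR) and -2.38 ± 0.30 in bone marrow cells (adjusted p = 3.45e-05, edgeR). Among 20 NF-κB target genes beside Tnf, 7 were called lower and 2 higher in MC903 resident cells, and 4 lower and 3 higher in bone marrow cells. Nfkbiz, an atypical IκB protein, averaged 2849 ± 525, 1335 ± 287 and 925 ± 206 CPM, and was called lower in both. Traf1 averaged 16.1 ± 5.50, 55.0 ± 14.6 and 96.8 ± 36.5 CPM, and was called higher in both. So was Bcl3, at 7.60 ± 3.01, 23.97 ± 9.69 and 29.55 ± 4.39 CPM (adjusted p = 0.0499 in MC903 resident cells, edgeR). Tnfaip3, which encodes A20, averaged 2118 ± 651, 993 ± 244 and 1945 ± 690.4 CPM; its log2 fold change was -1.23 in MC903 resident cells (adjusted p = 0.0091, edgeR) and -0.09 in bone marrow cells (adjusted p = 0.897, edgeR).

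Among 15 heat shock proteins and chaperones, a list that held none of the 3 DNAJ members, 3 were called lower in MC903 resident cells (Dnaja1, Bag3 and Hspa5), and 6 lower and 1 higher in bone marrow cells. Bag3, a co-chaperone of HSP70, averaged 211 ± 48.9, 110.2 ± 15.1 and 54.6 ± 7.48 CPM. The log2 fold change of Bag3 was -1.10 ± 0.19 (SE) in MC903 resident cells (adjusted p = 0.00197, edgeR) and -1.93 ± 0.21 in bone marrow cells (adjusted p = 5.42e-06, edgeR). Among 17 genes of the stress and unfolded protein response beside Atf4, 2 were called lower in MC903 resident cells and 1 in bone marrow cells. Dnajb9, a chaperone of the endoplasmic reticulum, was called lower in both, with means of 125.1 ± 40.4, 35.5 ± 13.4 and 20.03 ± 7.16 CPM.

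Of 22 genes of the NRF2 pathway, 4 were called lower and 0 higher in MC903 resident cells. In bone marrow cells 6 were lower and 4 higher. The list held no member. Srxn1, which met the rule on its values but was left out by name, was among the lower genes in both. The 4 lower in MC903 resident cells were 2 without library 1, 6, 7, 8 or 9. The 4 higher in bone marrow cells were 2 without library 1, 2, 4, 11, 13 or 15. Ferritin heavy chain, Fth1, averaged 4346 ± 459.6, 2452 ± 183 and 2178 ± 1306 CPM and was called lower in both. Pgd, Taldo1, Tkt and Txn1 were those called higher in bone marrow cells. Of 17 deubiquitinases and ubiquitin ligase genes of signalling, 5 were called lower in MC903 resident cells, and 2 lower and 2 higher in bone marrow cells. Siah2, a ubiquitin ligase, averaged 303 ± 88.2, 115 ± 45.4 and 47.96 ± 7.78 CPM, and was called lower in both. Among 19 metabolic Myc targets beside Mat2a, 2 were called lower and 0 higher in MC903 resident cells, and 1 lower and 5 higher in bone marrow cells (3 higher without library 1, 3, 11 or 13). Among 8 hypoxia genes beside Slc2a1, 1 was called lower in MC903 resident cells, and 1 lower and 1 higher in bone marrow cells.

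Of 18 cholesterol synthesis genes, 0 were called in MC903 resident cells by edgeR, and 0 lower and 6 higher in bone marrow cells (2 higher without library 3). Of 42 genes of ribosome biogenesis, 2 were called lower in MC903 resident cells, and 2 lower and 1 higher in bone marrow cells. Of 15 circadian genes, 1 was lower in MC903 resident cells, and 2 were lower and 1 higher in bone marrow cells. Of 10 glucocorticoid-induced genes, 1 was lower in MC903 resident cells, and 1 lower and 1 higher in bone marrow cells, the same counts as for 14 feedback genes of MAP kinase signalling. For 16 p53 targets the counts were 4 lower in MC903 resident cells (2 without library 3, 6 or 8), and 2 lower and 1 higher in bone marrow cells. For 9 polyamine genes they were 2 lower in MC903 resident cells, and 2 lower and 1 higher in bone marrow cells. Transcription elongation (19 genes) had 3 lower in MC903 resident and 2 lower in bone marrow cells, and mRNA decay (13 genes) had 2 and 1, with none higher in either.

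The members' exon length had a median of 4023 bases, against 4614 for the 5845 genes they were drawn from. On the X chromosome lay 5 of the 48 (10.4%: Lonrf3, P2ry10b, Rbmx, Rlim and Ddx3x), against 2.96% of the 5845 genes and 4.24% of all protein-coding genes. A total of 11 members shared exon bases with a gene on the opposite strand, the longest stretches being 1780 bases between Mat2a and Particl, 1588 between Tmod1 and Tstd2, 686 between Coq10b and E330011M16Rik, 643 between Chka and Gm16066 and 531 between Plek and Cnrip1. The libraries were not described as stranded in the sources used here, so reads there cannot be assigned to one gene.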

How the data were processed

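The deposited table held whole-number counts of reads per gene and a gene length for 55487 genes in 14 libraries. Per the labels' protocols, up to 100 sorted cells gave complementary DNA by SMART-Seq HT and libraries by Nextera XT. The submitters' processing notes name STAR, featureCounts and mm10, and the strand setting and versions are not given in the sources used here. Reads carry no molecular identifiers, so a limit from 3 counts covers counting error only.

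Gene names came from GENCODE M21, where 55094 identifiers had the same version and position and 55394 had a symbol. CPM was the count over the library total, without further scaling. The members and the gene lists were chosen with earlier results of these data known, so nothing here is independent support for the choice. The differences that chose the members were not tested for them.

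Groups follow the labels. Genes were filtered with filterByExpr, scaled by TMM and fitted over all 14 libraries and 3 groups with the edgeR 4.0.16 quasi-likelihood test (robust) in R 4.3.3. P-values were adjusted by Benjamini-Hochberg over 21014 genes at a threshold of 0.05. On simulated counts for 18166 genes, bone marrow against MC903 resident cells, this recovered 23.9% of genes changed by 2 log2 units. Of those changed by 3 it recovered 45.3%, and there were 4 false calls. The changed genes were drawn at random from all genes in the fit, so these shares do not describe the members. The genes named by rule were the 12 members with the largest ratio, the 6 most abundant and those called between the treated groups. To these came those in a gene list and the 3 genes on either side of the threshold. Some of them are given only as means. Others, among them Rcan1 library by library, were named after their values were seen. The alternatives were DESeq2 1.42.0 size factors and Wald test, limma 3.58.1 with quality weights, other filters, fits of fewer groups or genes, other thresholds of the rule and leaving out each library. TMM factors computed from abundant genes (mean of 10 CPM or more), and leaving out libraries 7, 8 and 15 together, were chosen after seeing the data.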

Additional observations from a re-analysis of the deposited data

Results flagged for a closer look

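Of 81 sets of values checked (27 genes in 3 groups), 7 had a library whose gap to the others took most of the range of its group. The members were chosen on their lowest untreated and highest MC903 values, so a chance rate for unselected values does not apply. In untreated cells, Plek was at 8386 CPM in library 1 against 5203 to 6064 CPM in the others, and Pnrc1 was at 599.6 CPM in library 5 against 460.9 to 494 CPM. In MC903 resident cells, Mat2a was at 394.8 CPM in library 7 against 185.7 to 225.1 CPM, and Ddx3x was at 319.4 CPM in library 10 against 221.1 to 236.2 CPM. In bone marrow cells, Lonrf3 was at 6.395 CPM in library 14 against 0 to 0.6006 CPM. P2ry10b was at 52.01 CPM in library 11 against 78.53 to 81.19 CPM, and Mafk was at 20.33 CPM in library 13 against 53.26 to 58.61 CPM.

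Both genes called between the treated populations are flagged because the drop from untreated cells differed between them. The difference in log2 fold change was -2.30 for Pmp22 and -2.11 for Mlf1, tested as bone marrow against MC903 resident cells in the edgeR fit.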

How the results depend on the processing

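The number of genes meeting the rule was 48, and 12 at a ratio of 2 and 282 at a ratio of 1. It was 56 with CPM scaled by TMM factors and 51 by DESeq2 size factors, with 41 and 40 of the 48 kept. Leaving out 1 library at a time gave 49 to 81 genes, the most without untreated library 5 (81), and leaving out libraries 7, 8 and 15 gave 64. Between the treated populations, 2 of the 48 members were called, both lower in bone marrow cells. There were 4 with DESeq2 size factors and 4 with TMM factors from abundant genes. At a mean of 10 CPM or more there were 6 (7.93% of the genes that could have been members called). With the DESeq2 Wald test there were 7 (10.7%), and with limma 6 (11.7%). The members' share was above that of those genes in each of these alternative fits. Leaving out 1 library gave 2 to 4 (4 without untreated library 1 or 4 or bone marrow library 11 or 14). Pmp22 and Mlf1 were called in all 23 alternatives and no member was called higher in any; at an unadjusted p under 0.05, 10 members differed in edgeR (20.8%), against 17.7% of all genes and 24.8% of those that could have been members. The cause of these shifts was not tested.

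DESeq2 size factors moved the median log2 difference of all genes between the treated populations by -0.15, and TMM factors from abundant genes by -0.16. The share of calls higher in bone marrow cells went from 58.1% to 40.8% and 41.2%, and the members' median from -0.10 to -0.23 with both. Uncalled members near 0 changed sign. In the order DESeq2 size factors, mean of 10 CPM, Wald test and TMM factors from abundant genes, Dnajb6 gave -0.013, -0.033, -0.013 and -0.025, Rsrp1 -0.117, -0.14, -0.117 and -0.13, and Mat2a -0.075, -0.092, -0.075 and -0.084. With only the 2 groups compared, Rsrp1 gave -0.074 and Mat2a -0.031. Wsb1 gave -0.009 at a mean of 10 CPM and -0.001 with TMM factors from abundant genes. Without a filter Tax1bp1 gave 0.022 and Rabgef1 0.015, and with limma Tax1bp1 gave 0.005, Rabgef1 0.084 and Mat2a -0.015. Without libraries 7, 8 and 15, Wsb1 gave -0.084, Mafk -0.041 and Slc2a1 -0.032. Leaving out 1 library gave ranges of -0.028 to 0.206 for Wsb1, -0.204 to 0.056 for Tax1bp1, -0.177 to 0.091 for Rabgef1, -0.169 to 0.302 for Rsrp1, -0.112 to 0.375 for Slc2a1 and -0.067 to 0.233 for Mat2a.

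Of the pathway genes without members, those called lower in MC903 resident cells numbered 44, 25 to 54 leaving out 1 library and 19 without libraries 7, 8 and 15. Those called higher there numbered 2, and 5 with DESeq2 size factors, 1 without a filter, 6 at a mean of 10 CPM, 7 with the Wald test, 4 over protein-coding genes, 6 with TMM factors from abundant genes and 1 to 4 leaving out 1 library. In bone marrow against untreated cells, 37 to 48 were lower and 17 to 29 higher leaving out 1 library. Between the treated populations 10 were lower (22 with the Wald test, 6 with limma, 4 to 10 leaving out 1 library) and 19 higher (32 without a filter, 39 with limma, 12 with only the 2 groups, 9 without libraries 7, 8 and 15, 8 to 26 leaving out 1 library). No paired analysis was possible because each library has a number of its own and nothing ties a library to an animal, so whether resident and bone marrow cells came from the same ears is unknown. Counts near 0 limit Lonrf3 and Tmod1 in bone marrow cells.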
